A study of Mus musculus with 4 samples.

Results

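Endothelial cells, the cells that line the inside of vessels and of the heart, made up 58 of the 29930 droplet barcodes in a single-cell RNA-seq data set of mouse aortic cells that had been sorted for smooth muscle. They were sought in each of the 4 libraries by their transcripts. A barcode was counted as endothelial when it had 300 or more detected genes, no more than 10% of its unique molecular identifiers (UMIs, each marking 1 captured transcript) from mitochondrial genes, and at least 8 UMIs summed over Pecam1, Cdh5, Emcn, Egfl7 and Cldn5 with at least 3 of these 5 genes detected. Of the 58 barcodes, 42 came from the aortic root (Root), 14 from the RFP-sorted ascending aorta (Asc-RFP) and 2 from the GFP-sorted ascending aorta (Asc-GFP), and 0 came from the GFP-sorted arch (Arch-GFP). They were set against the remaining barcodes of the same library with 1000 or more detected genes and the same mitochondrial limit, which numbered 2918 in Root, 4016 in Asc-RFP, 6406 in Asc-GFP and 8031 in Arch-GFP.

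The mice were 12 weeks old in all libraries and carried Wnt1-Cre2, a Cre recombinase driven in the neural crest, with the mT/mG allele, from which recombined cells and their descendants make membrane GFP and all others make membrane tdTomato (RFP). The segments were dissociated by cold enzymatic digestion, and viable single cells with ITGA8, an integrin subunit used as a smooth muscle surface antigen, were sorted by GFP or RFP. The title of the Root library names no colour. There was 1 library per group, the labels do not say how many mice went into each, and the labels call the sorted cells smooth muscle cells. Differences between libraries therefore have no replicate check, no test between groups was possible, and the 95% intervals given here cover counting error only.

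The endothelium keeps blood from clotting, controls the passage of solutes and white cells into the wall, and sets the tone of the muscle beneath it through nitric oxide, prostacyclin and endothelin. Its cells are held together by VE-cadherin (Cdh5), PECAM1 and claudin 5 (Cldn5), and answer to VEGF and angiopoietins through Kdr, Flt1 and Tek. Endothelial cells of arteries, veins, capillaries, lymphatics and the heart chambers and valves differ in known marker genes. In the aortic root the luminal lining meets the endothelium of the aortic valve, and small vessels also run in the outer wall and around the root.

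Promoter sequences are shown for 4 genes that differed in how often they were present. Egfl7 was found in nearly all endothelial barcodes. Emcn was found in 35 of 42 Root and 9 of 14 Asc-RFP barcodes, and Cldn5 in 21 and 11. Gja5 was found in few Root but most Asc-RFP barcodes. Each is 300 bases, 250 before to 50 after the annotated start, from RefSeq on GRCm38.p6, and all 4 lie on the plus strand. Capitals mark AGGAAG and its reverse complement CTTCCT, a core motif of ETS factors, which include the endothelial regulators Erg, Fli1 and Ets1. The windows are chr3:137340828-137341127 for Emcn, chr2:26583615-26583914 for the second of 3 listed starts of Egfl7, chr16:18776597-18776896 for Cldn5 and chr3:97032152-97032451 for Gja5.
Emcn: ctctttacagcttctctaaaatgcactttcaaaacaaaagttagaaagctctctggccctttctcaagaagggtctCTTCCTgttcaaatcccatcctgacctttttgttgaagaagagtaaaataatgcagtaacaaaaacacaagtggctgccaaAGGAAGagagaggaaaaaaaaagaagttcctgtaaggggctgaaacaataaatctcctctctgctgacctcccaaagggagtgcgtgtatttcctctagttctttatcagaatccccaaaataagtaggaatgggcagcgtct
Egfl7: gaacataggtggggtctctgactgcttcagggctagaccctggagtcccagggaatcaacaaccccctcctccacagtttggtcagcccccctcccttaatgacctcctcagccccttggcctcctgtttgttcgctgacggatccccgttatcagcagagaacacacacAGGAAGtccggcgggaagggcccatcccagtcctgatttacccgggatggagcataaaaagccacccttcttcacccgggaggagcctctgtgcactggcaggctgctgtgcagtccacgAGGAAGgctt
Cldn5: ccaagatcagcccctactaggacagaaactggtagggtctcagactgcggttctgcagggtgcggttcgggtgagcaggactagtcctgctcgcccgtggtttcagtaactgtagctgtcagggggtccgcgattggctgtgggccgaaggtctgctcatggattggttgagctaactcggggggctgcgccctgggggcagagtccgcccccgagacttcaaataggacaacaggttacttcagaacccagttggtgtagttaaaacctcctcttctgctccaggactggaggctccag
Gja5: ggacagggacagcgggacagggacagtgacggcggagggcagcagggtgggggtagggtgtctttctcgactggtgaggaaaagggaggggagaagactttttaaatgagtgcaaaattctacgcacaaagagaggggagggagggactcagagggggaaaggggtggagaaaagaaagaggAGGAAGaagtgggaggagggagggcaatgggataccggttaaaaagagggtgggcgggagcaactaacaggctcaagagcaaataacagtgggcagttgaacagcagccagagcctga
The Emcn and Egfl7 windows each held 2 matches, the Gja5 window held 1 and the Cldn5 window held 0. The motif was present in 11613 of 32851 windows of this length over all listed starts (35.4%), so a match is a description of these letters and no more.

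By library, endothelial barcodes were 1.22% of the 3450 Root barcodes that passed the gene and mitochondrial limits (exact binomial interval 0.879 to 1.64%), 0.235% of 5961 in Asc-RFP (0.128 to 0.394%) and 0.0259% of 7732 in Asc-GFP (0.00313 to 0.0934%). In Arch-GFP they were 0 of 9415, with an exact binomial interval of 0 to 0.0392%. Because the sort selected ITGA8-positive cells, these shares describe what passed the gate and not the makeup of the wall. The libraries held 41479646 UMIs (Root), 57063251 (Asc-RFP), 87500240 (Asc-GFP) and 104691850 (Arch-GFP). The endothelial barcodes carried 395976 of them in Root, 151731 in Asc-RFP and 16552 in Asc-GFP, so a gene at 100 CPM (its UMIs scaled by the total of the set, as in bulk RNA-seq) rests on few UMIs, and fewest in Asc-RFP.

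The endothelial barcodes were shallower than the rest. Their median was 6584 UMIs in Root and 6895 in Asc-RFP, against 13279 and 13614.5 UMIs in the remaining barcodes of the same libraries. Median detected genes were 2507.5 in Root and 2634.5 in Asc-RFP endothelial barcodes, against 3602 and 3642 in remaining ones. Single endothelial barcodes ran from 1746 to 38407 UMIs in Root and from 2122 to 31365 in Asc-RFP. Just inside the threshold, Root had 1 barcode each at 8, 9 and 10 UMIs of the 5 genes with at least 3 of them detected, and just outside it had 2 at 6 UMIs and 1 at 5. Asc-RFP had 1 such barcode at 7 UMIs, just outside, and none from 8 to 13. Between 9 and 34 cell barcode sequences were shared by any pair of libraries, and 1 Root endothelial barcode had its sequence also in Asc-GFP, where it was not endothelial.

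The 3 endothelial markers that were not part of the selection were high in the selected barcodes. Cytl1, a secreted cytokine-like protein, had 1457 CPM in Root endothelial barcodes against 5.12 CPM in the remaining barcodes, and 4495 against 3.42 CPM in Asc-RFP. Ptprb, the VE-PTP phosphatase that restrains Tek, had 982 against 2.90 CPM in Root and 1450 against 0.706 CPM in Asc-RFP. Ramp2, the partner of the adrenomedullin receptor, had 1035 against 1.45 CPM in Root and 1081 against 0.409 CPM in Asc-RFP. At least 1 UMI of Ramp2 was present in 40 of 42 Root and 14 of 14 Asc-RFP endothelial barcodes, against 1.44% and 0.548% of the deeper remaining barcodes. Cytl1 was less even: 25 of 42 Root barcodes had it, against 14 of 14 in Asc-RFP.

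The genes that chose the barcodes are given as a description. In Root endothelial barcodes Egfl7, a secreted endothelial matrix protein, ran from 1 to 51 UMIs with a median of 7.5, and all 42 had it. Pecam1 ran from 0 to 56 UMIs (median 6) and was present in 39, Cdh5 from 0 to 20 (median 3) in 38, and Emcn, the sialomucin endomucin, from 0 to 37 (median 6) in 35. Cldn5 was present in 21 of 42, with up to 50 UMIs in 1 barcode. In Asc-RFP Pecam1 ran from 3 to 44 UMIs (median 19.5) and was present in all 14, Cdh5 in 13, Egfl7 in 13, Cldn5 in 11 and Emcn in 9, with up to 61 Emcn UMIs. The remaining barcodes had 9.80 CPM of Pecam1 in Root and 11.5 CPM in Asc-RFP, and at most 1.32 CPM of each of the other 4 genes. The gene least often present was Cldn5 in Root and Emcn in Asc-RFP.

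**Figure D1:**
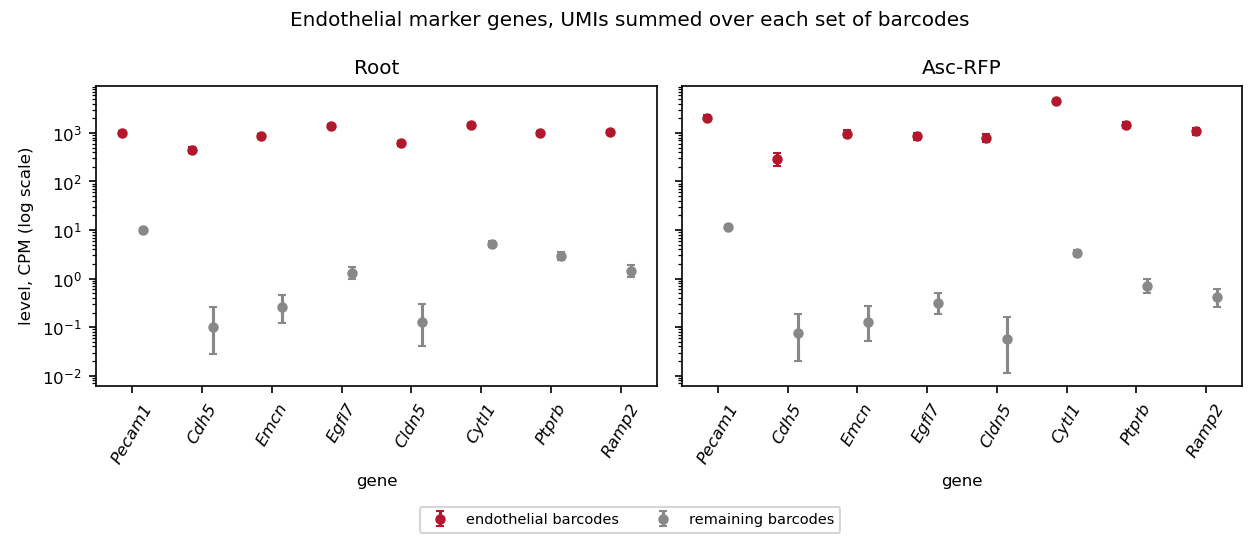
Levels in CPM (log scale) of the 5 genes of the selection and of Cytl1, Ptprb and Ramp2, summed over endothelial (red) and remaining barcodes (grey) of Root and of Asc-RFP, with 95% counting intervals. Cytl1 stands at 1457 CPM in Root and 4495 CPM in Asc-RFP endothelial barcodes, and Pecam1 has the highest level of the 8 genes in remaining barcodes, at 9.80 and 11.5 CPM.

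Smooth muscle transcripts were low but not at 0. All 12 SMC markers were at least 2-fold lower in endothelial than in remaining barcodes of Root and of Asc-RFP. Acta2, smooth muscle actin, had 1215 CPM in Root endothelial barcodes against 18878 CPM in remaining ones, and 4561 against 24694 CPM in Asc-RFP. Most of this came from few barcodes. Acta2 reached 247 UMIs in 1 Root barcode and 558 in 1 Asc-RFP barcode, and without the 2 Root barcodes and the 1 Asc-RFP barcode richest in muscle transcripts it was 570 and 989 CPM. Acta2, Myh11 and Tagln together took a median of 0.105% of the UMIs of a Root endothelial barcode (0.0373 to 3.09%) against 3.66% in the remaining barcodes, and 0.157% (0.0894 to 4.52%) against 4.28% in Asc-RFP. The second-highest barcode was at 0.925% in Root and 0.613% in Asc-RFP.

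The antigen of the sort was seldom detected as RNA. Itga8 had at least 1 UMI in 10 of 42 Root and 5 of 14 Asc-RFP endothelial barcodes, against 98.0% and 99.0% of the remaining barcodes. Its level was 75.8 against 1283 CPM in Root (log2 ratio −4.08, −4.65 to −3.57) and 145 against 1477 CPM in Asc-RFP (−3.35, −4.02 to −2.75). Without the muscle-rich barcodes it was 24.1 CPM in Root and 29.5 CPM in Asc-RFP endothelial barcodes. Transcripts of blood cells were scarcer. The 10 macrophage markers summed to 20.2 CPM in Root endothelial barcodes against 788 CPM in remaining ones, with Cd68, Adgre1, Csf1r, C1qc, Tyrobp and Mrc1 at 0 UMIs, and to 13.2 against 200 CPM in Asc-RFP. All 8 lymphocyte markers, Ptprc among them, were at 0 in both sets of endothelial barcodes, and the globin genes of the red cell list were at 0. The 7 pericyte markers summed to 48.0 CPM in Root endothelial barcodes against 417 CPM in remaining ones, and the 8 cardiomyocyte markers to 68.2 against 948 CPM, most of it Tnnt2. No endothelial barcode had more than 2 macrophage markers in Root or more than 1 in Asc-RFP.

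Most endothelial barcodes carried the unrecombined reporter. In Root endothelial barcodes tdTomato was present in 38 of 42, from 0 to 44 UMIs with a median of 5, and eGFP was present in 12, with no more than 4 UMIs in any. Among the remaining Root barcodes tdTomato was present in 73.6% and eGFP in 46.3%. The level of eGFP was 50.5 CPM in Root endothelial barcodes against 806 CPM in remaining ones (log2 ratio −4.00, −4.71 to −3.37), and tdTomato was 768 against 317 CPM (1.27, 1.10 to 1.44). In Asc-RFP 13 of 14 endothelial barcodes had tdTomato and 4 had eGFP, at up to 3 UMIs. That library was sorted for RFP, and of its 4016 remaining barcodes 3728 had tdTomato and 664 had eGFP. Both endothelial barcodes of the GFP-sorted ascending library carried tdTomato, with 5 and 7 UMIs, and had 0 UMIs of eGFP. In that library eGFP was present in 6394 of the 6406 remaining barcodes and tdTomato in 8.

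**Figure D2:**
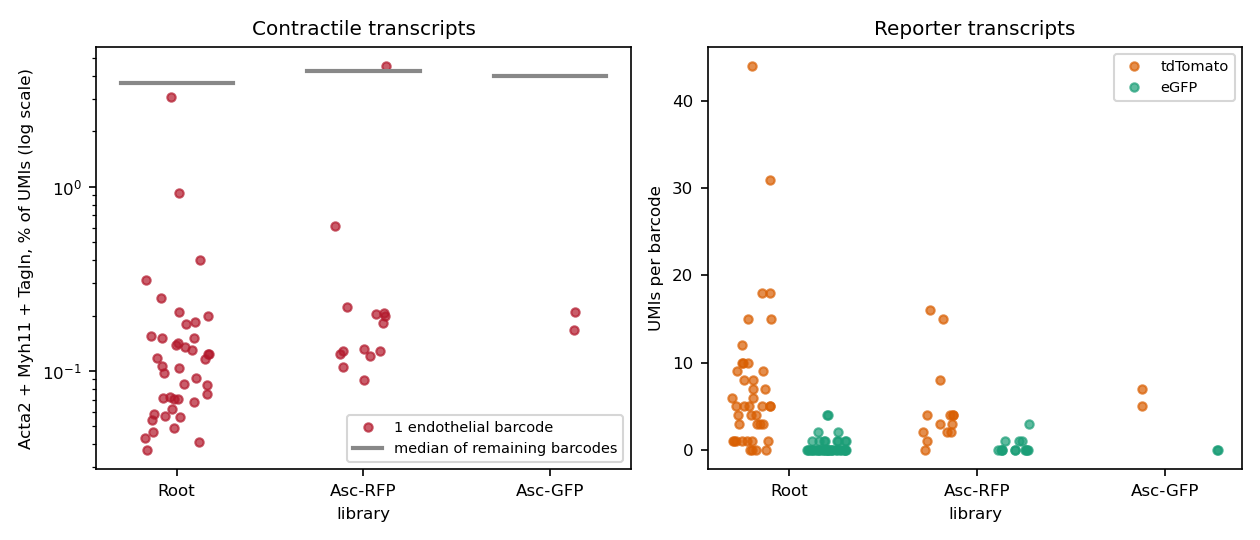
Left, the share of UMIs from Acta2, Myh11 and Tagln (log scale, %) in each endothelial barcode by library, with the median of the remaining barcodes as a bar; right, tdTomato and eGFP UMIs of each endothelial barcode. All but a few barcodes lie far below the median of the remaining barcodes (3.66% in Root, 4.28% in Asc-RFP), and no Root endothelial barcode has more than 4 eGFP UMIs.

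Against the remaining barcodes, which are mostly muscle, the endothelial barcodes differed in a large share of genes. Of the 2131 genes at 100 CPM or more in either Root set, 468 were at least 2-fold higher in endothelial barcodes (22%) and 369 at least 2-fold lower (17.3%), with a median log2 ratio of 0.19 over all genes measured. In Asc-RFP 513 of 2165 genes were at least 2-fold higher (23.7%) and 321 at least 2-fold lower (14.8%), with a median of 0.17. When the sums were scaled by TMM, which sets the trimmed mean of the log ratios to 0, the ratios moved down by 0.39 in Root and 0.42 in Asc-RFP and the split turned to 355 higher and 501 lower in Root and to 384 and 480 in Asc-RFP. The ratios below are on the CPM scale. A ratio above the 2-fold mark by less than these shifts, such as that of Cdh13 in both libraries, does not pass it after TMM scaling. Counts come from the 3′ ends of transcripts, so they are not scaled by gene length.

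Beside the selection genes, several others stood far higher in Root endothelial barcodes. Bmx, a kinase of arterial endothelium, had 242 CPM in endothelial barcodes against 0.0763 CPM in remaining ones (log2 ratio 11.63). Podxl, a sialomucin of the luminal surface, had 217 against 0.0763 CPM, and Kdr, the main VEGF receptor, had 212 against 0.0763 CPM with UMIs in 27 of 42 barcodes. Ctla2a, a cysteine protease inhibitor, had 1725 against 1.68 CPM. Procr, the protein C receptor, had 192 against 0.127 CPM, and Tek, the angiopoietin receptor, had 270 against 0.254 CPM. A pair of less typical genes ranked with them. Lsamp, a neuronal adhesion protein, had 563 against 0.356 CPM (10.63) and was present in 22 of 42, and Ahsg, fetuin-A, a plasma protein best known from liver, had 998 against 1.27 CPM (9.61) in 26 of 42. Rnase1 stood at least 1588-fold higher, with 0 UMIs in the remaining barcodes, but rested on 6 barcodes.

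In Asc-RFP Bmx had 455 CPM in endothelial barcodes against 0.0372 CPM in remaining ones (log2 ratio 13.58), and Icam2, an adhesion molecule of resting endothelium, had 705 against 0.167 CPM (12.04) with UMIs in all 14 barcodes. Car8, a carbonic anhydrase-related protein, and Gkn3, a gastrokine, each had 455 CPM, in 11 and 10 of 14 barcodes. Sox18, a vascular SOX factor, stood at least 2719-fold higher, with 0 UMIs in the remaining barcodes. Mmrn1, multimerin 1, stood at least 7920-fold higher at 442 CPM, but was present in only 2 barcodes, and Nts, neurotensin, rested on 49 UMIs of 1 barcode. At the low end were contractile and matrix genes. Myh11, the smooth muscle myosin heavy chain, had 338 against 4981 CPM in Root and 409 against 5182 CPM in Asc-RFP. Tagln had 705 against 13266 CPM (−4.23) in Root and 1298 against 13298 CPM (−3.36) in Asc-RFP. Ogn, Ccn3, Mfap4 and Col1a1 were also among the lowest in Root, and Rbp4, a retinol carrier, had 6.59 against 389 CPM in Asc-RFP.

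**Figure D3:**
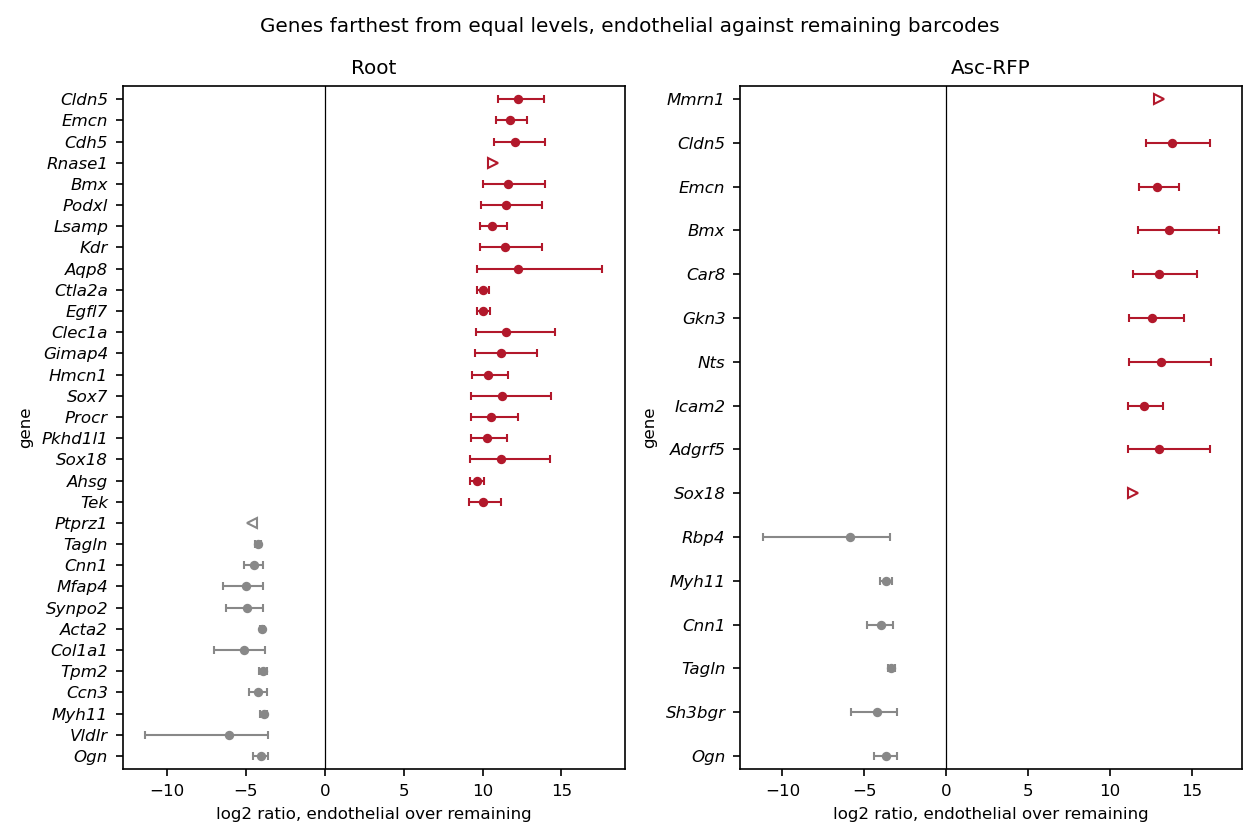
Log2 ratio of CPM, endothelial over remaining barcodes, with 95% counting intervals, for named genes in Root and in Asc-RFP; open triangles are bounds against 3 counts. Selection genes reach 12.24 (Cldn5 in Root) and 13.78 (Cldn5 in Asc-RFP), and the contractile genes lie below −3.

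By role, receptors for VEGF and angiopoietins were high among the genes that reached 100 CPM. Of 18 list genes 6 reached 100 CPM in Root and 7 in Asc-RFP, and all of them were at least 2-fold higher than in remaining barcodes, with a median log2 ratio of 9.07 in Root. All 18 together had 223 CPM in the remaining barcodes of Root and 186 CPM in those of Asc-RFP. Genes so scarce there enter the count mainly through the endothelial set, which largely fixes their direction. The same limit holds for other endothelial lists below. Flt1, the VEGF decoy receptor, had 859 against 39.3 CPM in Root (4.45, 4.27 to 4.62) and 152 against 22.4 CPM in Asc-RFP (2.76, 2.09 to 3.35). Nrp1, a VEGF and semaphorin co-receptor, had 578 against 41.0 CPM and 877 against 25.4 CPM. The ligands Vegfa, Angpt1 and Angpt2 were below 13 CPM in both sets of endothelial barcodes. Endothelial transcription factors followed the receptors: 15 of 16 measured genes were higher and 1, Mef2c, lower in Root (median 3.64), and 9 of 11 were higher in Asc-RFP (Mef2c was at −0.94 and Foxc1 at 0.45). Sox7 had 121 against 0.0509 CPM, Gata2 154 against 1.02 CPM and Lmo2 240 against 3.38 CPM in Root.

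Junction genes were higher in 12 and lower in 1 of 16 measured in Root (median log2 ratio 4.41), and higher in 15 and lower in 1 of 17 in Asc-RFP (median 4.87). Mcam, an adhesion molecule shared with smooth muscle, was the lower gene in both. The junction list also holds Pecam1, Cdh5 and Cldn5, which the selection itself set higher, and this raises the counts and medians. Cgnl1, a cingulin-like protein of tight junctions, had 884 against 12.1 CPM in Root and 659 against 22.5 CPM in Asc-RFP, and Cdh13, T-cadherin, had 518 against 207 CPM and 402 against 166 CPM. Esam, F11r and Jam2, which join endothelial cells, were at log2 ratios of 4.51, 4.31 and 4.92 in Root. The beta-catenin gene Ctnnb1 was within 2-fold, at 0.75 in both libraries.

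Genes that keep blood fluid and set vessel tone were also mostly higher, in 12 of 16 measured genes in Root and 11 of 14 in Asc-RFP. Nos3, endothelial nitric oxide synthase, had 159 against 0.840 CPM in Root, with UMIs in 25 of 42 barcodes, and 349 against 0.483 CPM in Asc-RFP, with UMIs in 11 of 14. Vwf, von Willebrand factor, had 540 against 0.942 CPM and 732 against 1.10 CPM. Thbd, thrombomodulin, had 356 against 11.7 CPM and 475 against 27.2 CPM. Ptgis, prostacyclin synthase, was lower in both libraries and had 202 against 869 CPM in Root and 376 against 1048 CPM in Asc-RFP. Ptgs1, the cyclooxygenase upstream of prostacyclin, was higher at 366 against 3.33 CPM in Root. Genes that answer to flow were higher in 8 and lower in 3 of 12 measured in Root (median log2 ratio 3.69), and higher in 9 and lower in 2 of 13 in Asc-RFP (median 4.61). The lower ones were Sod3, a secreted superoxide dismutase, and Ptgis in both libraries, and Mef2c, a transcription factor, in Root. Klf2 had 1227 against 65.7 CPM (4.22) in Root and 2017 against 61.2 CPM (5.04) in Asc-RFP, and Klf4 had 354 against 28.3 CPM and 540 against 22.1 CPM.

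BMP and TGF-β genes were higher in 11 and lower in 1 of 15 measured in Root, with a median log2 ratio of 1.64, and higher in 8 and lower in 3 of 14 in Asc-RFP (median 1.51). Eng, endoglin, a co-receptor of this family, had 1662 against 23.6 CPM in Root, with UMIs in 40 of 42 barcodes, and 448 against 22.7 CPM in Asc-RFP, with UMIs in 11 of 14. The ligand genes Bmp6 and Bmp4 were both high: Bmp6 had 202 against 0.254 CPM in Root and 382 against 0.223 CPM in Asc-RFP, and Bmp4 had 230 against 5.45 CPM and 1180 against 6.34 CPM. Tgfb2 was the lower gene in Root, at 37.9 against 180 CPM. Notch1 had 354 against 10.2 CPM in Root and 165 against 4.35 CPM in Asc-RFP, whereas Notch3, a mural cell receptor, had 5.05 against 46.2 CPM in Root and 0 UMIs in Asc-RFP endothelial barcodes.

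Matrix and adhesion genes divided. Over all genes measured, 22% were at least 2-fold higher and 17.3% lower in Root, and 23.7% and 14.8% in Asc-RFP. Of 18 basement membrane genes measured in Root 3 were higher and 10 lower, and of 16 in Asc-RFP 2 were higher and 9 lower. The higher ones were Mmrn2, an endothelial matrix protein (447 against 2.93 CPM in Root), Fbln2, fibulin 2 (255 against 5.27 CPM) and Nid1 (149 against 18.1 CPM). Col18a1 had 240 against 915 CPM and Igfbp7 1371 against 6370 CPM in Root. Of the integrins measured in Root, Itga6, a laminin receptor subunit, was higher at 199.5 against 1.37 CPM, and Itga8, Itgb1 and Itgb5 were lower. Leukocyte adhesion and immune genes were higher in 12 of 13 measured genes in Root and 13 of 13 in Asc-RFP, but Sele had 0 UMIs in both and Icam1 had 32.8 CPM in Root. Among stress genes of dissociation, 3 of 15 measured were higher in Root, near the share of all genes, and 6 were lower. Hspa1a had 111 against 885 CPM in Root. The proliferation genes Mki67 and Top2a had 0 UMIs in endothelial barcodes of both libraries. The 12 cell cycle genes summed to 98.5 CPM in endothelial against 48.4 CPM in remaining barcodes of Root, and to 72.5 against 56.3 CPM in Asc-RFP. Most of this was Pcna, a clamp of DNA replication, at 42.9 CPM in Root and 52.7 CPM in Asc-RFP endothelial barcodes, and in Root also Tyms, thymidylate synthase, at 37.9 CPM.

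Genes described for endothelial-mesenchymal transition were higher in 1 and lower in 6 of 10 measured in Root (median log2 ratio −1.67). The lower ones include the SMC markers Acta2, Tagln and Cnn1, which the remaining muscle barcodes express at high levels. Lower values against such barcodes do not bear on transition, which was not tested. The higher gene was Fn1, fibronectin, with 1634 against 350 CPM. Postn, periostin, stood close to the 2-fold mark at 1386 against 701 CPM (0.98, 0.86 to 1.11). Fibroblast markers split evenly in Root, with 4 of 8 measured higher and 4 lower. Dcn, the proteoglycan decorin, had 4015 against 106 CPM, ran from 0 to 221 UMIs with a median of 19, and was present in 31 of 42 barcodes. Pdgfra had 258 against 8.27 CPM, Pi16 106 against 0.407 CPM and Lum 157 against 41.3 CPM. In the same barcodes the fibrillar collagen gene Col1a1 had 10.1 against 352 CPM, Col1a2 60.6 against 910 CPM and Gsn 35.4 against 405 CPM, and Scara5 was at 0 UMIs. The part of other cells in these Dcn, Pdgfra and Lum values was not tested.

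The lists of endothelial subtypes were mixed within both libraries. Venous genes were at least 2-fold higher than in remaining barcodes in 4 of 4 measured in Root and 6 of 6 in Asc-RFP, where 19 of the 20 Nr2f2 UMIs were in 1 barcode. Capillary genes were higher in 6 of 6 and 3 of 3. In the remaining barcodes the 9 venous genes together had 105 CPM in Root and 88.8 CPM in Asc-RFP. The 14 capillary genes together had 265 and 203 CPM there. Such genes reach 100 CPM almost only through the endothelial set, so these counts were largely set by the CPM minimum. Arterial genes were higher in 6 and lower in 3 of 10 measured in Root, where the lower ones were Mgp, Fbln5 and Eln, which the remaining muscle barcodes express at high levels. In Asc-RFP 10 of 13 arterial genes were higher and 0 lower. Endocardial and valve genes were higher in 13 and lower in 2 of 16 in Root (median log2 ratio 4.81) and higher in 6 and lower in 2 of 11 in Asc-RFP (median 4.57). At least 3 venous list genes were present in 57.1% of Root and 92.9% of Asc-RFP endothelial barcodes, but thinned to 3000 UMIs the counts were 13 of 36 Root barcodes (36.1%) and 6 of 13 Asc-RFP barcodes (46.2%), with 6 and 1 shallower barcodes left out. Such shares move with depth, and the splits below are therefore given as levels and counts.

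Root endothelial barcodes differed among themselves in several sets of genes. These splits were chosen after the values were seen and are descriptions without intervals. Prox1, a homeobox gene of lymphatic and valve endothelium, was present in 19 of 42 Root barcodes, with up to 24 UMIs, and in 0.308% of the remaining barcodes. Only 1 of these 19 also had Mmrn1. Leaving that barcode out, the 18 barcodes with Prox1 had 1530 CPM of Ahsg (17 barcodes) against 180 CPM in the 23 without Prox1 (9 barcodes). Lsamp had 775 CPM in the 18 (17 barcodes) against 250 CPM in the 23 (5 barcodes), and Enpp2, autotaxin, which makes lysophosphatidic acid, had 1915 CPM (15 barcodes) against 402 CPM (7 barcodes). Postn had 1865 against 687 CPM and Pdgfra 398 against 41.6 CPM. The barcodes with Prox1 were also the deeper ones, with a median of 10025 against 5840 UMIs.

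Other genes were lower in the barcodes with Prox1. Fabp4, a fatty acid carrier of capillary endothelium, had 4.15 CPM in the 18 with Prox1 against 4725 CPM in the 23 without. Ly6a had 0 UMIs in barcodes with Prox1 against 791 CPM in those without, Stmn2 had 0 UMIs against 389 CPM, and Fbln2 had 49.7 against 617 CPM. Calcrl, the adrenomedullin receptor, had 20.7 against 375 CPM. Prox1 was found together with Postn in 18 of its 19 barcodes, with Dcn in 17, with Pdgfra in 12 and with Cldn5 in 12.

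A second division of the Root barcodes ran along Vwf and Cldn5. Cldn5, like Emcn, is a selection gene, so the selection itself shapes which barcodes have or lack it, here and in the other divisions. Of the 42 barcodes, 6 had Cldn5 without Emcn, 20 had Emcn without Cldn5 and 1 had neither. Vwf was present in 22 and Cldn5 in 21 of 42 barcodes, but only 6 had both, 16 had Vwf without Cldn5, 15 had Cldn5 without Vwf and 5 had neither. Npr3, the natriuretic peptide clearance receptor, a gene of endocardium and valve, was present in 12 barcodes, of which 11 also had Vwf and 2 had Cldn5. Barcodes with Vwf had 2273 CPM of Cytl1 against 94.4 CPM in those without, and 21 of the 22 had Cytl1. They also had 7155 against 506 CPM of Mgp, the matrix Gla protein, 355 against 20.2 CPM of Bmp4, and 157 CPM against 0 UMIs of Edn1. Barcodes without Vwf held more Wnt4 (12.1 CPM with Vwf, 209 CPM without), Aqp8, a water channel (20.2 with, 290 CPM without) and Enpp2 (735 with, 2279 CPM without). The barcodes with Vwf were also deeper, with a median of 8279.5 against 6312 UMIs.

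A smaller set of Root barcodes had high Fabp4. In 8 of 42 Fabp4 reached 10 UMIs or more, and none of these 8 had Prox1. All 6 barcodes with Gpihbp1, which carries lipoprotein lipase across capillary endothelium, were among the 8, at 507 CPM against 0 UMIs in the other 34 barcodes. Other capillary list genes were often outside it, with 11 of 15 barcodes with Cd300lg, 22 of 27 with Kdr and 5 of 10 with Cd36 among the other 34. Meox2 and Tcf15, a pair of transcription factors of heart and muscle capillaries, had 223 and 162 CPM in the 8 and 0 UMIs in the 34. Cldn5 had 60.9 against 692 CPM, Postn 122 against 1566 CPM, Dcn 751 against 4480 CPM and Lsamp 0 UMIs against 643 CPM. One of the 8 barcodes carried 290 Fabp4 and 36 Cd36 UMIs.

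Single Root barcodes carried other sets of genes. Gja5, an arterial gap junction protein, was present in 2 barcodes, with 2 and 5 UMIs, and both also had high Cldn5 (50 and 29 UMIs) and Cytl1 (87 and 54), and 0 UMIs of Emcn and Dcn. One barcode with 13 Mmrn1 UMIs also had 14 UMIs of Nts, 4 of Flt4, the lymphatic VEGF receptor, and 1 of Prox1. One held 8 UMIs of Ackr1, the chemokine receptor of venules, and 1 held 19 UMIs of Hapln1 and 5 of Wnt9b. In 1 barcode 162 Dcn, 29 Lum and 27 Vcam1 UMIs stood beside 7 of Dpt, a fibroblast matrix gene, so both fibroblast and endothelial transcripts were in that droplet.

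**Figure D4:**
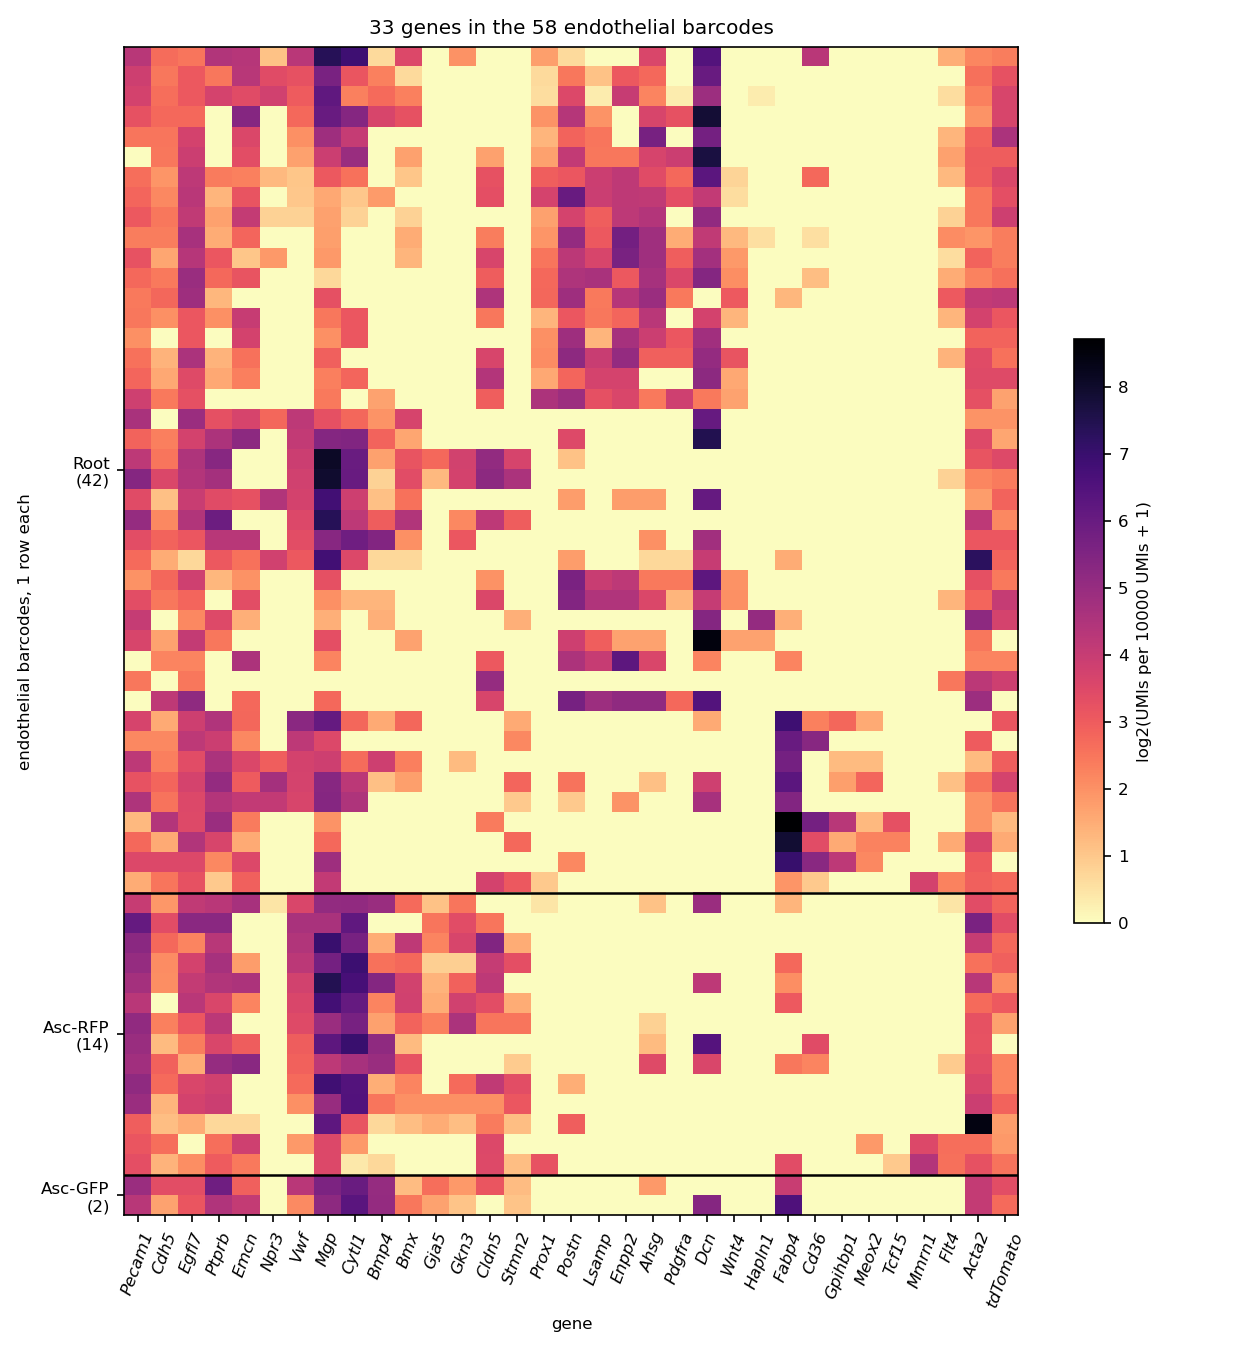
Colour gives log2(UMIs per 10000 UMIs + 1) of each gene (columns) in each of the 58 endothelial barcodes (rows), grouped by library. Gpihbp1 sits in 6 Root barcodes, all with Fabp4 and without Prox1, 6 Root barcodes have both Vwf and Cldn5, and Gja5 and Gkn3 are present in 9 and 10 of 14 Asc-RFP barcodes.

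The Asc-RFP endothelial barcodes were divided by Dcn, again chosen after the values were seen and with the 2 Mmrn1 barcodes left out. The 4 of 12 barcodes with at least 10 Dcn UMIs had 75, 12, 62 and 11 of them. They had 2433 CPM of Emcn against 90.3 CPM in the other 8, and 3191 against 256 CPM of Bmp4, 1416 against 30.1 CPM of Edn1, endothelin 1, and 2274 against 286 CPM of Nrp1. Bmp6 had 1017 against 105 CPM, Eng 937 against 166 CPM and Apoe 17731 against 2334 CPM. The 8 barcodes without Dcn held more Cldn5, with 219 CPM in the 4 against 1084 CPM in the 8, where all 8 had it against 1 of 4. Emcn and Cldn5 are both selection genes, and a barcode poor in either had to be selected through the others. Their opposite pattern is therefore not independent of the selection. Gkn3 was present in 2 of 4 and in 8 of 8 barcodes, at 319 against 798 CPM, and Stmn2 was at 19.9 against 467 CPM.

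The 2 Mmrn1 barcodes of Asc-RFP stood apart from the other 12. One held 63 Mmrn1, 26 Prox1, 16 Flt4, 49 Nts and 29 Maf UMIs, genes of the lymphatic list or known from lymphatic endothelium, and 112 UMIs of Ptn, the growth factor pleiotrophin. The other held 4 Mmrn1 and 2 Flt4 UMIs. Almost all Prox1 of the Asc-RFP endothelial barcodes was in that first barcode, and a single Asc-RFP barcode had Prox1 without Mmrn1. The 2 Asc-GFP endothelial barcodes held 71 and 47 UMIs of Cytl1, 29 and 24 of Bmp4, 2 and 4 of Gja5 and 84 and 11 of Fabp4. Sfrp1, a secreted Wnt inhibitor, had 33 UMIs over these 2 barcodes.

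Root and Asc-RFP endothelial barcodes were then set against each other, the only pair with more than 2 barcodes each. Of 2146 genes at 100 CPM or more in either, 152 were at least 2-fold higher in Root (7.08%) and 201 at least 2-fold lower (9.37%), and the median log2 ratio over all of them was −0.07. With TMM scaling, a shift of −0.086, the counts were 171 and 185. Most endothelial barcodes of both libraries carried tdTomato, 38 of 42 in Root and 13 of 14 in Asc-RFP, where the sort itself selected RFP. Region cannot be told apart from the library itself.

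The genes highest in Root endothelial barcodes included several of the Prox1 division above. Enpp2 had 1313 CPM in Root, in 22 of 42 barcodes, against 0 UMIs in Asc-RFP, which makes it at least 66.4-fold higher. Lsamp had 563 CPM against 0 UMIs, at least 28.5-fold higher, and Pdgfra had 258 CPM in 16 barcodes against 0 UMIs, at least 13.0-fold higher. Postn had 1386 CPM in Root, in 30 of 42 barcodes, against 79.1 CPM in 2 of 14 in Asc-RFP (log2 ratio 4.13, 3.32 to 5.09). Npr3 had 407 against 6.59 CPM (5.95, 3.45 to 11.26), in 12 Root barcodes and 1 Asc-RFP barcode. Ebf1, a transcription factor, had 1126 against 112 CPM (3.33), in 35 of 42 and 5 of 14 barcodes, and Ahsg had 998 against 105 CPM (3.24), in 26 of 42 and 4 of 14. Aqp8, Epha7 and H19 also had 0 UMIs in Asc-RFP, though H19 rested on 7 Root barcodes.

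At the other end, Sfrp1 had 20.2 CPM in Root, in 4 of 42 barcodes, against 1140 CPM in Asc-RFP, in 11 of 14 (log2 ratio −5.82, −7.05 to −4.81). Pcolce2, an enhancer of procollagen cleavage, had 10.1 CPM in 2 Root barcodes against 376 CPM in 10 Asc-RFP barcodes, and Ecrg4 had 10.1 CPM in 2 against 382 CPM in 7. Fndc1 was present in 2 and 8 barcodes. Serpina1b had 0 UMIs in Root against 171 CPM in 4 Asc-RFP barcodes, and its near copy Serpina1e was present in 5, and how the counting divided reads between such copies is not given. Ptn, Stc1, Cmah and Maf also ranked among the lowest ratios but rested on the barcode with 63 Mmrn1 UMIs, which held 112 of 119 Ptn, 45 of 47 Stc1 and 20 of 21 Cmah UMIs of Asc-RFP.

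**Figure D5:**
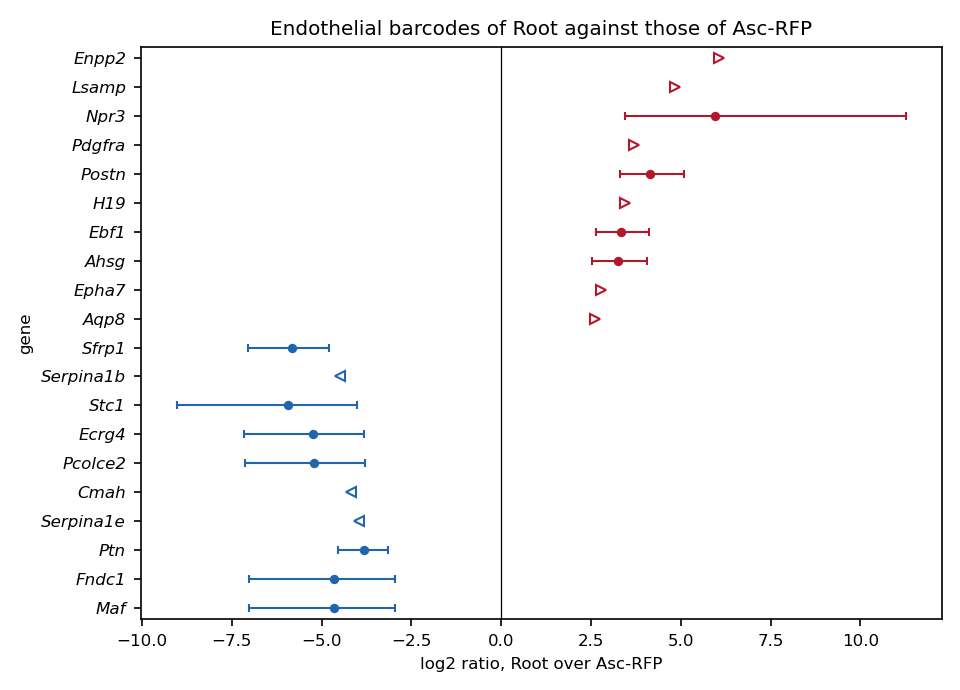
Log2 ratio of CPM, Root over Asc-RFP endothelial barcodes, with 95% counting intervals, for the 10 genes farthest to each side; open triangles are bounds against 3 counts. Postn (4.13) and Npr3 (5.95) lie to the Root side and Sfrp1 (−5.82) to the Asc-RFP side.

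Arterial list genes leaned to Asc-RFP, with 2 higher and 6 lower in Root of 13 measured (median log2 ratio −0.91). Gja5 had 17.7 CPM in Root against 125 CPM in Asc-RFP (−2.82, −4.32 to −1.51), in 2 of 42 and 9 of 14 barcodes. Edn1 had 98.5 against 481 CPM (−2.29, −2.89 to −1.71), and Eln, elastin, 429 against 1779 CPM (−2.05, −2.34 to −1.77). Eln is also a muscle transcript, at 1215 CPM in the remaining barcodes of Root and 1668 CPM in those of Asc-RFP. The 12 muscle markers summed to 3328 CPM in Root and 8429 CPM in Asc-RFP endothelial barcodes, and their part in the arterial values was not tested. The exceptions were Gja4, another connexin gene, with 227 against 112 CPM, and Efnb2, ephrin B2, with 419 against 185 CPM, both higher in Root. Gja5 and Efnb2, both widely used arterial markers, thus lay on opposite sides. Shear-responsive genes were higher in 0 and lower in 5 of 14 measured, with Slco2a1, a prostaglandin transporter, at 80.8 against 310 CPM and Nos3 at 159 against 349 CPM, whereas Klf2 was within 2-fold at −0.72 (−0.93 to −0.51).

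Capillary genes leaned to Root, with 5 of 6 measured at least 2-fold higher (median log2 ratio 2.18) and Kdr, the other, at 0.55. Fabp4 had 1730 against 343 CPM (2.34, 1.93 to 2.77), in 13 of 42 Root and 6 of 14 Asc-RFP barcodes, so it was present in similar shares and its level in Root rested on few barcodes. Lpl had 349 against 39.5 CPM (3.14, 1.98 to 4.61) and Cd300lg 121 against 13.2 CPM in 15 Root barcodes. Endocardial and valve genes were higher in 6 and lower in 1 of 15 measured. The higher ones were Npr3, Tbx20, Cdh11, Foxc1, Ednrb and Tmem100, of which Tmem100, a BMP-responsive membrane protein, had 162 against 13.2 CPM (3.62, 1.70 to 6.69), and the lower one was Cytl1 (−1.63, −1.79 to −1.46).

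BMP genes lay on both sides. Eng had 1662 CPM in Root against 448 CPM in Asc-RFP (log2 ratio 1.89, 1.53 to 2.27), Id1, a direct BMP target, 556 against 132 CPM (2.08, 1.41 to 2.81) and Id3 1392 against 620 CPM. Bmp4 had 230 against 1180 CPM (−2.36, −2.74 to −1.99), in 19 of 42 and 12 of 14 barcodes, and Acvrl1, the receptor ALK1, was also lower in Root at 58.1 against 185 CPM (−1.67). In the whole list 5 were higher and 2 lower of 14 measured. Of the VEGF and angiopoietin genes only Flt1 passed 2-fold of 7 measured, at 859 against 152 CPM (2.50, 1.89 to 3.18), while Tek was at 0.07 and Tie1 at 0.24 (−0.43 to 0.95).

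Junction genes, the selection genes Pecam1, Cdh5 and Cldn5 among them, were higher in 1 and lower in 2 of 17 measured. These counts were near the shares of all genes. Ramp2 was at −0.06 (−0.33 to 0.21), and Mmrn2 at 0.20 (−0.23 to 0.65). Of 19 transcription factors 6 were higher in Root, among them Ets1 at 260 against 46.1 CPM (2.50, 1.40 to 3.85) and Erg at 116 against 32.95 CPM, and 2 were lower. Clotting and tone genes divided, with 4 higher and 5 lower of 16, where Ednrb, the endothelin B receptor, had 210 against 32.95 CPM (2.67, 1.39 to 4.33) and Ace, which makes angiotensin II, had 68.2 against 330 CPM (−2.27, −3.01 to −1.57). Fn1 had 1634 against 316 CPM (2.37, 1.94 to 2.82), and Dcn 4015 against 1054 CPM (1.93, 1.69 to 2.17). By Xist and Y-linked transcripts 25 Root endothelial barcodes were female and 8 male (75.8% female, 57.7 to 88.9%). In Asc-RFP 7 were female and 5 male (58.3%, 27.7 to 84.8%). The intervals overlap, and both libraries held endothelial barcodes of both sexes.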

How the data were processed

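The authors deposited 1 matrix of raw UMI counts per library, which per the file headers is output of Cell Ranger 7.0.0, from 10x 3′ v3.1 libraries per the labels' protocols. Per the submitters' processing notes, reads went to mm10 and later steps used Seurat 4.3. How strand was handled is not stated, so overlapping and antisense genes may share reads. The labels state 4040 cells before and 1841 after filtering in Root (6539 and 2450 in Asc-RFP, 8845 and 4050 in Asc-GFP, 10506 and 4710 in Arch-GFP). The matrices hold the first number of each pair, and that filter was not used here because its terms are not stated. Of 32287 features, 32235 were matched to the mm10 annotation.

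UMIs were summed over barcodes and divided by their total to give CPM, and ratios were formed from sums (Python 3.11.15, numpy 2.4.6, scipy 1.17.1, pandas 2.3.3). Intervals are at 95%, exact Poisson for levels, exact conditional binomial for ratios and exact binomial for shares, and cover counting error only, since each group was 1 library and cells are not replicates. Ratio intervals were tested on simulated data. A count of 0 was set against 3 counts as a bound. Genes with at least 100 CPM in either set entered the counts of genes past 2-fold. A gene scarce in the remaining barcodes could enter only through the endothelial set, so list counts of such genes lean to higher.

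Named genes were ranked by the interval bound nearest 0: the 20 highest and 12 lowest in Root, 10 and 6 in Asc-RFP, and 10 and 10 for Root against Asc-RFP, leaving out mitochondrial, ribosomal protein and sex-linked genes. Added to these were the given markers and, per list, the 4 highest levels and 4 largest differences in Root. Not every gene that these rules name is given in the text. Other genes and the divisions among barcodes were chosen after their values were seen. Members and lists were chosen with earlier results of these data known. No doublet caller was run, free RNA was not removed, and barcodes rich in muscle transcripts were left out as an alternative. Other alternatives changed the selection, the CPM minimum, the scaling, the weight of deep barcodes and depth.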

Additional observations from a re-analysis of the deposited data

Results flagged for a closer look

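In the GFP-sorted arch library, which had no endothelial barcode and enters no comparison, 11 barcodes had 8 or more Pecam1 UMIs, 114 in all, and 0 UMIs of Cdh5, Emcn, Egfl7 and Cldn5. They were singled out because they show signal of a selection gene in a library that is not compared. Asc-GFP had 3 such barcodes with 25 Pecam1 UMIs and Asc-RFP had 2 with 16. In Root the 1 barcode that reached 8 UMIs with fewer than 3 genes had 3 Pecam1 and 5 Egfl7 UMIs. Pecam1 was also present in 23.1% of the remaining barcodes of Asc-GFP, at 26.2 CPM.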

How the results depend on the processing

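No paired analysis was possible because each group was 1 library. Counts of genes past 2-fold followed the CPM minimum. At 50 CPM they were 897 higher and 576 lower for Root endothelial against remaining barcodes, 1061 and 539 for Asc-RFP, and 389 and 486 for Root against Asc-RFP. At 200 CPM they were 218 and 213, 226 and 178, and 69 and 102, and with no minimum 8749 and 1826, 10264 and 1498, and 1565 and 2368. Under the other alternatives each count stayed within 1.5 times, except 354 genes lower in Root than in Asc-RFP when only the 25 and 7 female barcodes were used. The genes behind the counts changed more. With each barcode weighing the same, 114 of 215 higher and 147 of 288 lower genes for Root against Asc-RFP were also in the main counts. Without the deepest barcodes these were 117 of 217 and 161 of 258. For Root endothelial against remaining barcodes, equal weights gave 415 of 495 and 348 of 371. Thinned to 3000 UMIs, 36.1% of the 36 Root and 46.2% of the 13 Asc-RFP endothelial barcodes of that depth had 3 venous genes, and 19.4% of the 36 had 3 capillary genes, against 54.8% of all 42 at full depth.

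Some single genes changed sign. Without the deepest endothelial barcode of each library, Root over Asc-RFP was 0.014 for Cmah, 0.13 for Mmrn1 and 0.081 for Ptn, and Nr2f2 in Asc-RFP over remaining barcodes was −2.56. Nr2f2 was −0.93 without the barcodes with Mmrn1, an alternative chosen after seeing the data. Tnnt2 in Root over Asc-RFP was 0.12 without muscle-rich barcodes, and in female barcodes Egr1 was −0.034, Procr 0.11 and Selp 0.46. The selection gave 45, 15, 2 and 0 barcodes in Root, Asc-RFP, Asc-GFP and Arch-GFP at 5 UMIs and 39, 14, 2 and 0 at 12. With 14 barcodes in Asc-RFP, 1 barcode can set the level of a gene, and a gene with 0 UMIs there is not shown to be absent.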
